A study of Mus musculus with 4 samples.

Results

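The nuclear genes of respiratory complexes III and IV and of ATP synthase were examined in RNA sequencing libraries of activated mouse CD8+ T cells. Members were the protein-coding rows whose symbol begins with Uqcr, Atp5 or Cox and a digit, together with Cyc1, Cycs, Sco1, Sco2, Surf1, Pet100, Pet117 and Taco1. This gave 60 genes of the 53465 in the table: 9 subunits of complex III, cytochrome c, 18 subunits of complex IV including tissue isoforms, 15 complex IV assembly factors, and 17 genes of ATP synthase. Of these, 54 had enough counts to be tested.

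The CD8+ T cells came from the spleen and had been activated for 24 h on beads carrying antibodies to CD3 and CD28. By their titles, 2 libraries came from wild-type mice (labelled WT) and 2 from mice lacking PP2Cm (labelled KO), and the replicates of each label were described as biological. PP2Cm is the mitochondrial phosphatase encoded by Ppm1k, which activates the breakdown of branched-chain amino acids by removing phosphate from branched-chain ketoacid dehydrogenase. The labels state neither the construction of the PP2Cm allele nor the age or sex of the mice.

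The respiratory chain passes electrons to oxygen and pumps protons across the inner mitochondrial membrane. Complex III takes electrons from ubiquinol and gives them to cytochrome c, complex IV passes them from cytochrome c to oxygen, and ATP synthase uses the returning protons to make ATP. Most subunits are encoded in the nucleus and a few core subunits in mitochondrial DNA, so assembly needs both genomes, and activated CD8+ T cells enlarge their mitochondria as they begin to divide.

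Library totals ranged from 12967251 to 17316284 counts, the highest being WT replicate 2. Ppm1k did not follow the labels. Its level in CPM (counts per gene set to a common library size with the trimmed mean of M values, TMM) was 7.84 and 5.53 under the WT label and 11.8 and 14.3 under the KO label, a log2 difference of 0.97 with a standard error (SE) of 0.23 and an adjusted p of 0.186 by edgeR's quasi-likelihood test. Without WT replicate 1 the adjusted p was 0.0278. The deleted part of the gene is not stated, so counts over the whole gene check the labels only in part. The short description codes of the 4 samples also name the opposite genotype to their titles and genotype fields. Groups here follow the titles, a library is named by its label (WT replicate 1 is the library labelled so), differences are labelled KO minus labelled WT, and every sign would turn if the codes were right. Summed markers of CD8+ T cells were 2710 and 2460 CPM under the WT label and 2380 and 2270 under the KO label. Of these, the labels overlapped for Cd8a (542 and 523 against 547 and 511 CPM), Cd8b1, Cd3e and Trac. Cd3d (173 and 175 against 107 and 137 CPM), Cd3g, Trbc1 and Trbc2 were lower in both libraries labelled KO. Summed B-cell markers were 426 and 365 against 303 and 268 CPM, nearly all of it Ighm, at 406 and 345 against 286 and 257 CPM. Cd79b was at 10.3 and 10.1 against 7.74 and 5.61 CPM and Ighd at 6.84, 4.53, 4.96 and 4.85, while Ms4a1, Cd79a and Pax5 stayed at or under 2 CPM. The 7 myeloid markers summed to between 4.3 and 8.48 CPM with S100a9 at 0, and the 4 erythroid markers to at most 2.53 CPM with Alas2 at 0. The 4 dendritic markers summed to between 4.59 and 7.96 CPM, the 3 NK markers to between 78.2 and 94.8 CPM, nearly all of it Eomes, and the 4 CD4 and regulatory T-cell markers to between 21.1 and 38.9 CPM. Of these, Cd4 was at 3.0 and 4.71 against 10.0 and 5.12 CPM, and Ikzf4 and Foxp3 were likewise higher in both libraries labelled KO, whereas Zbtb7b was at 9.53 and 16.7 against 9.02 and 7.06 CPM. The 4 stromal and endothelial markers summed to 37.0 and 30.7 CPM under the WT label and 18.0 and 19.0 under the KO label, nearly all of it Pecam1, with Cdh5 and Col3a1 at 0. The part of these marker differences in the results below was not tested.

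Of the 54 genes tested, 1 passed an adjusted p of 0.05, and this was Pet117, which was lower in the libraries labelled KO. Over all 13528 genes tested, 0.207% passed. The remaining 53 genes lay between log2 differences of -0.83 and 0.55, and 43 of the 54 lay within 0.25 of 0. At an unadjusted p under 0.05, 5 of the 54 differed, where 12.9% of all genes did: 4 were lower (Pet117, Atp5f1, Cox7a2l and Pet100), beside 7.23% of all genes, and 1 was higher (Cox17), beside 5.7%. By DESeq2, Pet117 was again the one member called, beside 2.09% of the genes it tested. The median log2 difference of the 54 was -0.08, beside -0.01 for all genes, and 36 of the 54 (66.7%) were negative, beside 51.9% of all genes. The labels did not overlap for 22 genes, beside 44.9% of all genes: both libraries labelled KO lay below both labelled WT for 16 (29.6%), beside 23.3%, and above both for 6 (11.1%), beside 21.5%. The median moved from -0.20 without WT replicate 1 to 0.04 without WT replicate 2, and was -0.15 without KO replicate 1 and -0.01 without KO replicate 2. It was also -0.01 once the trend of fold change with the length behind the deposited FPKM was taken out. For most members that length was longer than any annotated transcript. In bulk RNA, fewer cells of a type and less RNA per cell cannot be told apart. With 2 libraries per label the smallest p of an exact two-sided permutation test is 0.333, so the tests rest on a spread shared across genes.

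**Figure D1:**
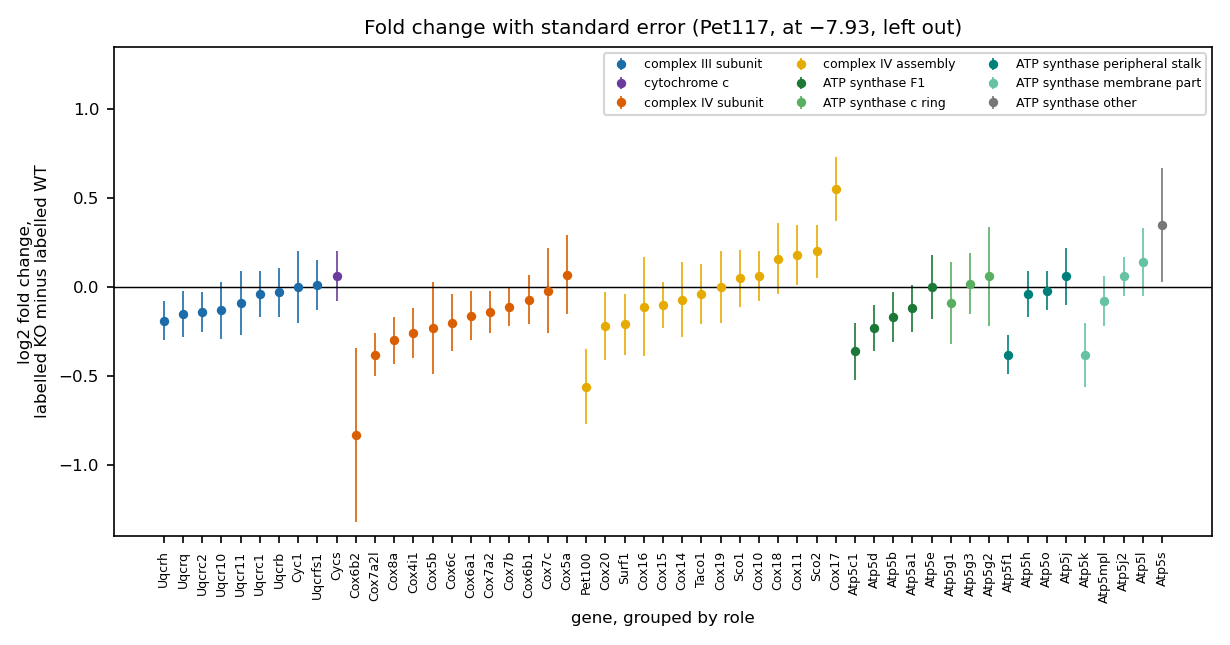
Log2 difference, labelled KO minus labelled WT, of 53 tested genes with the standard error from edgeR (vertical bars), ordered and coloured by role. Most lie within 0.25 of 0; Cox17 at 0.55 is the highest, Cox6b2 at -0.83 the lowest, and Pet117 at -7.93 lies off the axis and is left out.

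Pet117 encodes a small assembly factor of complex IV. It had 246 and 348 counts under the WT label and 1 and 1 under the KO label, or 18.9, 20.5, 0.0752 and 0.0692 CPM. The labels did not overlap. The fitted log2 difference was -7.93 (SE 0.33, adjusted p 0.000672, edgeR). The ratio of the pooled counts per library total was 271, with an exact 95% interval of 74.6 to 2240 that covers counting error only.

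The gene (ENSMUSG00000098387) lies at chr2:144368996-144373721 on the plus strand of GRCm38, in GENCODE M21, with exons of 162 and 531 bases. Its annotation is nested in Kat14, which encodes a subunit of a histone acetyltransferase complex, at chr2:144368983-144407676 on the same strand. The transcript Kat14-201 holds all 693 bases of Pet117 and uses the same splice junction. A second one, Kat14-208, holds 338 of them, including all 243 coding bases. The coding sequence is shown because every base of it, across the junction, also belongs to Kat14 transcripts. It runs from chr2:144369062 to chr2:144373337, and capitals mark the 147 bases from the second exon.

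Pet117: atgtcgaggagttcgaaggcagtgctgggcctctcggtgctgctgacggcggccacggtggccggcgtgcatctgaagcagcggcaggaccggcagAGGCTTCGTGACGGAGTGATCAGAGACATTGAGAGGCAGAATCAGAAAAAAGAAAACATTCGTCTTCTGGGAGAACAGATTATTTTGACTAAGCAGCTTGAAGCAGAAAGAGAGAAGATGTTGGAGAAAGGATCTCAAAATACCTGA

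Kat14 itself had 868 and 744 counts under the WT label and 799 and 764 under the KO label. Its log2 difference was 0.03 (SE 0.21, adjusted p 0.966, edgeR), and the labels overlapped. Pet117 and Kat14 together had 1114 and 1092 counts against 800 and 765, or 85.6 and 64.3 against 60.2 and 53 CPM. This sum did not pass, with a log2 difference of -0.40 (SE 0.17, adjusted p 0.388), although both libraries labelled KO lay below both labelled WT. Pet117 held 15.8% of the joint counts, so its loss could lower the sum only modestly, and the sum cannot decide the call of Pet117. How reads common to both genes were divided is not stated, so the count of Pet117 is uncertain.

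**Figure D2:**
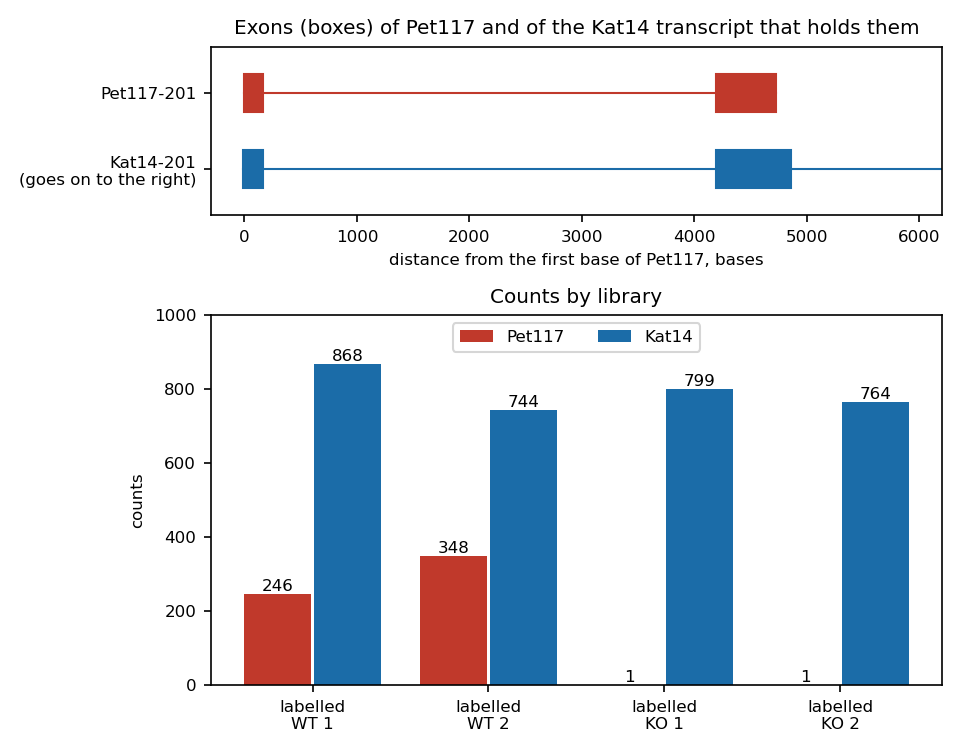
Upper panel: exons (boxes) of Pet117 and of the Kat14 transcript that holds them, by distance in bases from the first base of Pet117. Lower panel: counts of both genes in each library; Pet117 has 246 and 348 counts under the WT label and 1 in each labelled KO, and Kat14 has between 744 and 868 in all 4.

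The 9 subunits of complex III differed little between the labels. None of them passed, 7 were negative and 2 positive, and their median log2 difference was -0.09 with a range of -0.19 to 0.01. The median was -0.20 without WT replicate 1, -0.15 without KO replicate 1, -0.02 without KO replicate 2 and turned to 0.04 without WT replicate 2. Their summed level was 1355 and 1630 CPM under the WT label and 1491 and 1344 under the KO label, so both values labelled KO fell between those labelled WT or below them. Cyc1, the heme subunit that hands electrons to cytochrome c, was at 217, 319, 295 and 242 CPM in WT replicates 1 and 2 and KO replicates 1 and 2. The libraries labelled WT were the lowest and the highest, with those labelled KO between them (0.00, SE 0.20, adjusted p 0.999). Uqcrfs1, the Rieske iron-sulfur subunit, was at 153, 196, 182 and 171 CPM (0.01, SE 0.14). Uqcrh, the small hinge subunit, was at 122 and 124 CPM under the WT label and 103 and 112 under the KO label. These did not overlap, yet the difference of -0.19 (SE 0.11) had an adjusted p of 0.502 by edgeR. The core subunits Uqcrc1 and Uqcrc2 were at 271 to 324 and 263 to 307 CPM in the 4 libraries.

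Cytochrome c, the mobile carrier between complexes III and IV and a trigger of apoptosis when released, is encoded in somatic cells by Cycs. It was at 65.3 and 81.8 CPM under the WT label and 76.2 and 77.7 under the KO label, a log2 difference of 0.06 (SE 0.14, adjusted p 0.897).

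Of the 18 genes for complex IV subunits, 12 were tested, 11 of these were negative and 1 positive, and none passed. The median log2 difference was -0.18, and 5 of the 12 did not overlap between labels, all lower in the libraries labelled KO, where 44.9% of all genes did not overlap and 23.3% were lower. The median was -0.33 without KO replicate 1, -0.27 without WT replicate 1, -0.10 without KO replicate 2 and -0.08 without WT replicate 2. The summed level was 1247 and 1463 CPM under the WT label and 1293 and 1098 under the KO label. Cox7a2l, a relative of Cox7a2 that links complex III to complex IV in supercomplexes (ENSMUSG00000024248, chr17:83501918-83517330, minus strand), had the lowest p of the role. It was at 122 and 104 CPM under the WT label and 85.9 and 88.1 under the KO label, means of 113 ± 12.1 and 87.0 ± 1.54 (SD, n = 2 each). The labels did not overlap, and the log2 difference of -0.38 (SE 0.12) had an unadjusted p of 0.0171 and an adjusted p of 0.277 by edgeR. Cox8a, a small subunit of the membrane domain, was at 173 and 206 against 166 and 142 CPM (-0.30, SE 0.13, adjusted p 0.409). Cox5a, the exception in sign, was at 95.1, 152, 144 and 116 CPM in WT replicates 1 and 2 and KO replicates 1 and 2 (0.07, SE 0.22), with WT replicate 1 the lowest of all.

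Complex IV carries subunits with ubiquitous and tissue-restricted isoforms, and in these cells the ubiquitous form held nearly all of the counts. Cox4i1, the ubiquitous form of subunit 4, was at 208 and 249 against 207 and 174 CPM (-0.26, SE 0.14, adjusted p 0.483), whereas the lung form Cox4i2 had 2 counts in WT replicate 1 and 0 in the other libraries. Cox6a1 was at 139, 157, 147 and 118 CPM, and the muscle form Cox6a2 had 3, 7, 5 and 0 counts. Cox7a2 was at 97.0, 114, 94.1 and 97.7 CPM, and the muscle form Cox7a1 had 6, 4, 0 and 6 counts. The other forms of subunit 8, Cox8b and Cox8c, and Cox7b2, had 0 counts in all 4 libraries. A count of 0 allows up to 3 counts, or 0.231, 0.173, 0.224 and 0.211 CPM in WT replicates 1 and 2 and KO replicates 1 and 2. Cox6b1 was at 139, 133, 144 and 114 CPM. Its testis form Cox6b2 was the restricted isoform with enough counts to test, at 27 and 18 counts (2.07 and 1.06 CPM) under the WT label and 10 and 14 (0.752 and 0.969 CPM) under the KO label. The difference of -0.83 had an SE of 0.49 and an adjusted p of 0.533.

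Assembly factors of complex IV insert copper and heme and stabilise the early intermediates. All 15 were tested. Besides Pet117 none passed, 7 were positive and 8 negative, and the median log2 difference was -0.04, or from -0.18 without WT replicate 1 to 0.20 without WT replicate 2. Cox17, the copper chaperone that loads Sco1, Sco2 and Cox11 (ENSMUSG00000046516, chr16:38346991-38352763, plus strand), was at 26.9 and 33.8 CPM under the WT label and 48.7 and 40.6 under the KO label. Both libraries labelled KO were the higher, with means of 30.4 ± 4.92 and 44.7 ± 5.72 CPM (SD, n = 2 each). The log2 difference was 0.55 (SE 0.18), with an unadjusted p of 0.0185 and an adjusted p of 0.283 by edgeR. Of the other proteins on the copper route, Sco2 was at 37.2 and 41.6 against 48.8 and 42.0 CPM (0.20, SE 0.15, adjusted p 0.628), again without overlap. Sco1 was at 30.5, 37.5, 35.3 and 35.0 CPM (0.05, SE 0.16), and here the labels overlapped.

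Pet100 encodes a further assembly factor (ENSMUSG00000087687, chr8:3621548-3625848, plus strand). It was at 11.7 and 12.3 CPM under the WT label and 6.99 and 9.28 under the KO label, from 93 to 209 counts per library. The log2 difference was -0.56 (SE 0.21, unadjusted p 0.0309, adjusted p 0.33, edgeR). Surf1, whose human gene is mutated in Leigh syndrome, was at 26.4 and 32.0 against 26.9 and 23.6 CPM, and Taco1, which helps translate the mitochondrial Cox1 message, at 24.3, 30.4, 27.1 and 26.2 CPM. Neither Surf1 nor Taco1 differed beyond the spread within a label.

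The 17 genes of ATP synthase had a median log2 difference of -0.04, with 10 negative and 7 positive, and none passed. Their summed level was 5302 and 5891 CPM under the WT label and 5226 and 4824 under the KO label. The F1 head holds the catalytic sites, and its 5 genes had a median of -0.17, which was -0.26 without WT replicate 1, -0.10 without KO replicate 2 and -0.07 without WT replicate 2. Atp5b, the catalytic beta subunit, had the highest level of all members, both per kilobase of its principal transcript (1210 CPM per kb over the 4 libraries) and by deposited FPKM (333). It was at 2290 and 2610 CPM under the WT label and 2280 and 2070 under the KO label (-0.17, SE 0.14, adjusted p 0.669). Per kilobase, Atp5a1, the other large subunit of the head, came next at 524, followed by Atp5g3 at 391, Cox8a at 312 and Cox4i1 at 274. By deposited FPKM the order after Atp5b was Cox8a at 314, Atp5a1 at 245 and Cyc1 at 224, so the order depends on the length used. Atp5c1, the rotating gamma subunit, was at 318 and 305 CPM under the WT label and 204 and 281 under the KO label. Its difference of -0.36 (SE 0.16, adjusted p 0.411) came mostly from KO replicate 1, and was -0.15 without it. Atp5e, the epsilon subunit, was at 80.1, 107, 106 and 81.5 CPM (0.00, SE 0.18).

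The peripheral stalk holds the head still while the rotor turns. Its subunit b, encoded by Atp5f1 (ENSMUSG00000000563, chr3:105942698-105960099, minus strand), had the lowest p of all members after Pet117. It was at 284 and 310 CPM under the WT label and 231 and 223 under the KO label, means of 297 ± 18.2 and 227 ± 5.59 (SD, n = 2 each). The gap between labels was wider than the spread within either. The log2 difference of -0.38 (SE 0.11) had an unadjusted p of 0.00866 and an adjusted p of 0.23 by edgeR. In the counts listed under them, the other stalk genes showed no such gap. Atp5h was at 58.1, 62.0, 61.8 and 54.9 CPM, Atp5o at 176, 157, 169 and 157, and Atp5j at 74.4, 76.5, 89.5 and 68.0. With the counts of a gene that shares its coding sequence added, Atp5h did show one, as given below. Of the small membrane subunits, Atp5k was at 28.8 and 33.6 against 26.8 and 21.1 CPM (-0.38, SE 0.18, adjusted p 0.444) and Atp5l at 11, 11.3, 10.8 and 13.8 CPM (0.14, SE 0.19). Atp5s, coupling factor B, lies outside the core enzyme and was at 1.77 and 2.18 against 2.71 and 2.35 CPM (0.35, SE 0.32, adjusted p 0.706).

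The c ring, the rotor in the membrane, is built from 1 mature protein that 3 genes encode with different import signals. The last 228 coding bases of Atp5g1 (chr11:96068852-96075670), Atp5g2 (chr15:102662864-102672352) and Atp5g3 (chr2:73908447-73911326), all on minus strands of GRCm38, are shown because they give the same 75 residues and a stop by different codons. Capitals mark the 58 positions (25.4%) at which the 3 genes do not all have the same base.

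Atp5g1: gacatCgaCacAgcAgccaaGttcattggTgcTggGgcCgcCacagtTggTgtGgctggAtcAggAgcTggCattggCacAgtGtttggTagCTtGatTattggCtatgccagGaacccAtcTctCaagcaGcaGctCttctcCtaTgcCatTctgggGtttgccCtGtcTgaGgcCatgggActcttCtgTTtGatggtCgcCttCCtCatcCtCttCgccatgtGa
Atp5g2: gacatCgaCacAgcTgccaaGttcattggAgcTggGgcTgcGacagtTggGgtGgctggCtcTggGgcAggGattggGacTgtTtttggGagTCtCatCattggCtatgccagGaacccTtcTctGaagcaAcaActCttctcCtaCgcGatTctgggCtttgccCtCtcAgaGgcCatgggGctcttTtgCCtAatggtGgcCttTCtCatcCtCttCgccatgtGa
Atp5g3: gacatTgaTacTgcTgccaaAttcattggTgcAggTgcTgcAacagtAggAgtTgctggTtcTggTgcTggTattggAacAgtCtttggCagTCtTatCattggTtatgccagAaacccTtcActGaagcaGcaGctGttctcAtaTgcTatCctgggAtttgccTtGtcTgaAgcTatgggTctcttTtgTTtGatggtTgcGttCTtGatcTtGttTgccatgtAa

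Over these bases Atp5g1 and Atp5g2 were 85.1% identical, Atp5g1 and Atp5g3 79.8%, and Atp5g2 and Atp5g3 78.5%. No pair shared a stretch of 31 bases in the whole coding sequence. In counts listed under each gene itself, Atp5g3 was the highest of the set. It was at 239, 321, 314 and 254 CPM in WT replicates 1 and 2 and KO replicates 1 and 2 (log2 difference 0.02, SE 0.17). Atp5g1 followed at 32.6, 50.6, 42.3 and 35.9 CPM (-0.09, SE 0.23), and Atp5g2 was listed at only 2.77, 2.77, 2.93 and 2.84 CPM (0.06, SE 0.28). None of the 3 passed. The labels overlapped for Atp5g3 and Atp5g1, and for Atp5g2 both libraries labelled KO lay slightly above both labelled WT.

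Many counts were listed under genes that share the members' coding sequence, most of them processed pseudogenes. For 16 of the 60 members, another annotated gene held at least 50% of the 31-base windows of the coding sequence. For Atp5g2 every window also lay in the processed pseudogene Gm10175, which had 2849, 4253, 3121 and 2601 counts, so that 1.25% of the joint counts were listed under Atp5g2 itself. With such copies added, Atp5g2 stood at 222, 254, 239 and 184 CPM and its difference became -0.17 (SE 0.15, adjusted p 0.685). For Cycs, every window lay in Gm10053, and 28.2% of the joint counts were listed under Cycs. Its level with 3 copies added was 241, 285, 262 and 280 CPM (0.04, SE 0.12). Atp5l held 11.1% of the counts it shared with 5 copies, and its difference turned from 0.14 to -0.20 (SE 0.10, adjusted p 0.476) with them added. With Gm10250 added, Atp5h was at 169 and 172 against 149 and 149 CPM (-0.20, SE 0.10, adjusted p 0.465, edgeR). With Gm10039 added, Atp5g1 was at 127, 188, 164 and 142 CPM (-0.04, SE 0.19). Atp5g3 shared no window and was still the highest c-ring gene in each library, while Atp5g2 with its copies now lay above Atp5g1. Of the joint counts, Cox7c held 17.8%, Atp5g1 26%, Atp5h 37% and Cox5b 60.4%. By contrast Atp5f1 held 89.7%, and with its copy Gm12231 added it was at 318 and 341 against 258 and 253 CPM (-0.37, SE 0.10, adjusted p 0.239). Cox7a2l held 86.7% and moved to -0.36 (SE 0.12, adjusted p 0.294). Cox17 kept 100%, since the overlapping gene Gm21987 was at 0. With all such genes added, including Kat14 to Pet117, none of the 54 passed, 37 were negative, and the median was -0.11. Not all of the added genes are separate copies. Kat14, Tymp (added to Sco2), Gm20498 (added to Cox16) and Gm21987 share exon bases with the member on the same strand.

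**Figure D3:**
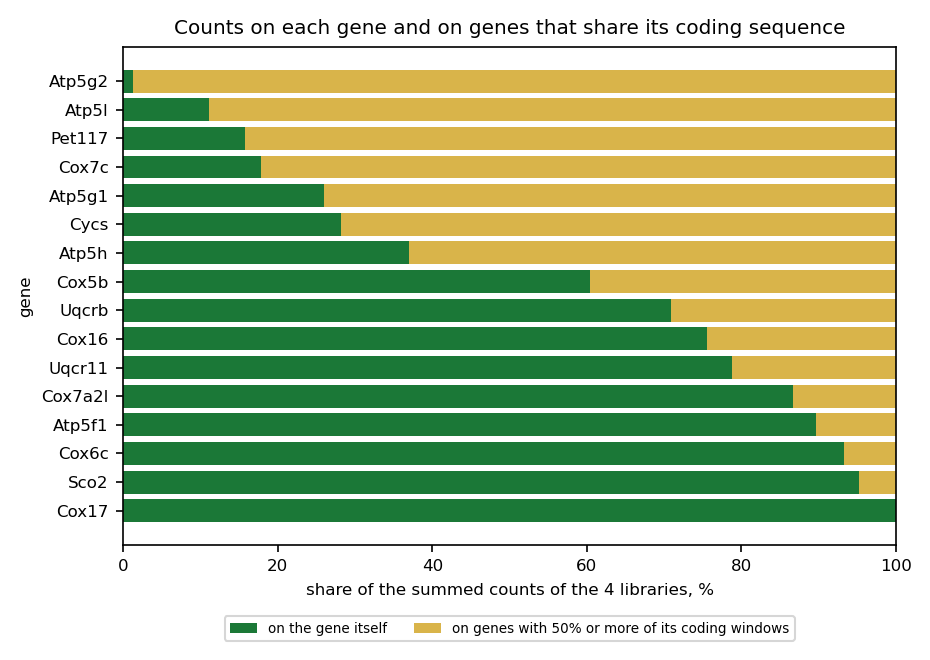
Share of the summed counts of the 4 libraries listed under each of 16 genes (green) and under genes that hold at least 50% of its 31-base coding windows (yellow). The share of the gene itself runs from 1.25% for Atp5g2 to 100% for Cox17.

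Within a label the members moved together from library to library. WT replicate 2 lay above WT replicate 1 for 48 of the 54 genes (88.9%), beside 49.7% of all genes, and KO replicate 2 lay below KO replicate 1 for 43 (79.6%), beside 49.5%. Both held for 40 of the 54 (74.1%), beside 30.4% of all genes tested. The median difference between replicates, on the log2(CPM + 1) scale, was 0.20 for the libraries labelled WT and -0.15 for those labelled KO. Each was larger in size than the fitted median of -0.08 between labels. That fit compares labels of 2 libraries each, which varies less than a difference between single libraries, so the sizes are not like for like. The summed level of the members was 8360 and 9533 CPM under the WT label and 8532 and 7741 under the KO label, so WT replicate 2 was the highest and KO replicate 2 the lowest. Across the 54 genes, the 2 replicate differences had a correlation of -0.363, beside -0.177 across all genes. Genes of 1 library share its depth and preparation and are not independent, so these values are a description. WT replicate 2 also had the most counts, whereas KO replicate 2 had 14199020 counts and KO replicate 1 had 13394074. The part of depth in this pattern was not tested.

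**Figure D4:**
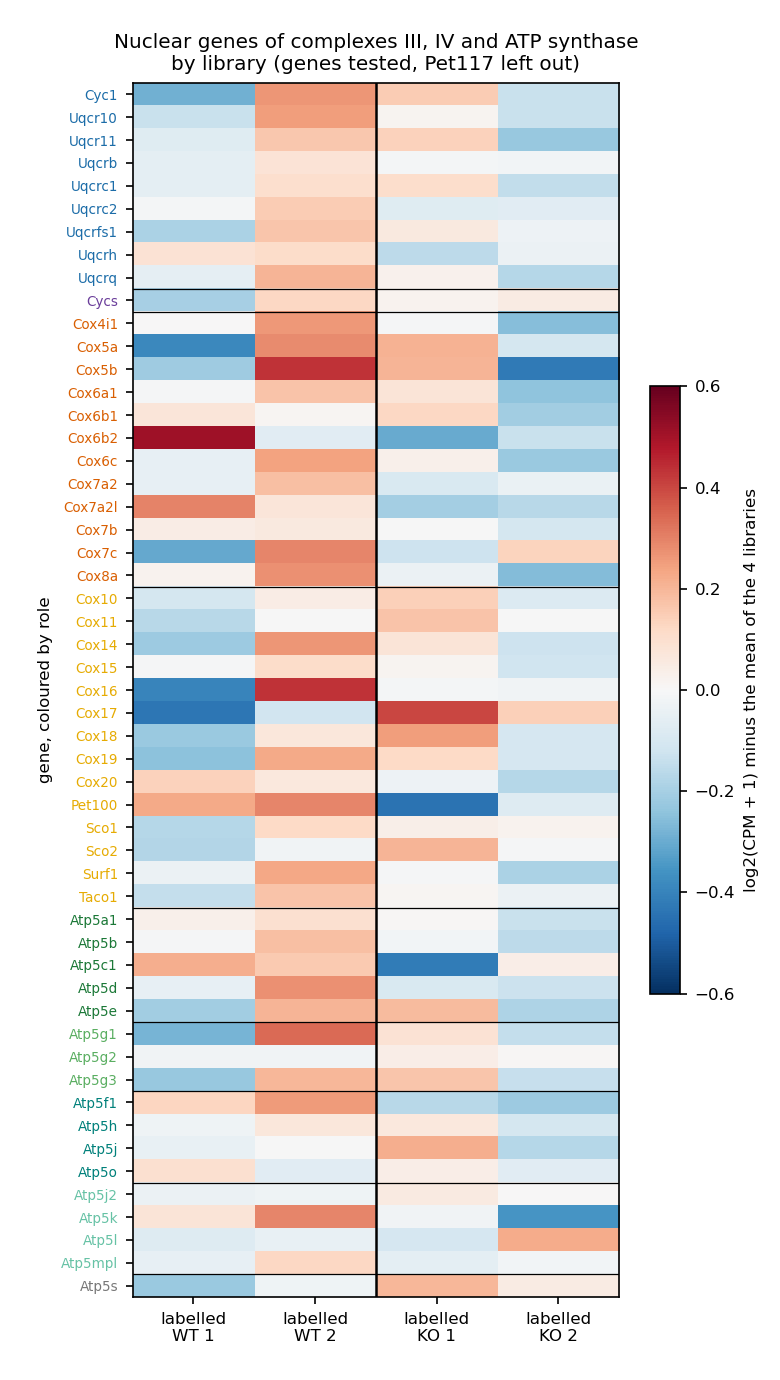
Level of 53 tested genes in each library on the log2(CPM + 1) scale, minus the mean of the 4 libraries, with genes grouped and coloured by role. The column of WT replicate 2 is mostly above the mean and that of KO replicate 2 mostly below it.

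**Figure D5:**
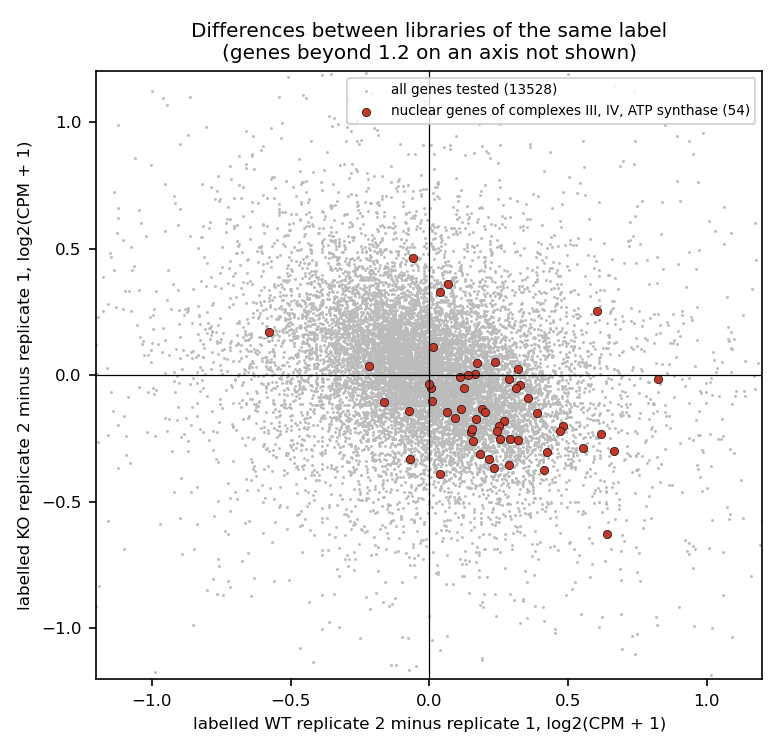
Difference between replicates 2 and 1 of the libraries labelled WT (horizontal) and of those labelled KO (vertical), on the log2(CPM + 1) scale, for all 13528 genes tested (grey) and the 54 members (red). Of the members, 40 lie at the lower right, higher in WT replicate 2 and lower in KO replicate 2 than in the other replicate of their label.

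Promoters of the members were searched for short motifs as a description, and any link to the pattern above was not tested. Genes of the respiratory chain are classic targets of nuclear respiratory factor 1 (NRF1) and of the ETS-family factor GABP (formerly NRF2). RefSeq promoters on GRCm38.p6, from 250 bases before to 50 after the start site, were matched for 45 members with 49 promoters. On either strand, CCGGAAG, an ETS motif, was in 19 of the 49 (38.8%), beside 8.86% of all 32851 promoters. The NRF1 motif, GCGCA and GCGC with any 1 base between them, was in 8 (16.3%), beside 4.6%, AANATGGC, a YY1 motif, in 6 (12.2%), beside 6.05%, and CCAAT in 24 (49.0%), beside 37.4%. The promoters of all genes include those of genes not tested here, and no share was taken among tested genes alone. None of the 4 motifs contains another, and a match is a stretch of letters, not a site shown to be bound. The share of all promoters that hold both the ETS and the NRF1 letters was not taken. Of the 49 promoters of members, 3 held both. They are those of Atp5h (chr11:115419870-115420169), Atp5k (chr5:108434350-108434649) and Cox6a1 (chr5:115348909-115349208), all on the minus strand, shown with both motifs in capitals.

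Atp5h: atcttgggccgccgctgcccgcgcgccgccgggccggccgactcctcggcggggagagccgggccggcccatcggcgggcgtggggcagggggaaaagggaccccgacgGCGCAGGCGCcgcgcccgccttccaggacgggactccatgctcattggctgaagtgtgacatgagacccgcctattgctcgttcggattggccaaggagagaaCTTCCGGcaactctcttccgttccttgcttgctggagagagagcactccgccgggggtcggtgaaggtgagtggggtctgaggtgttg
Atp5k: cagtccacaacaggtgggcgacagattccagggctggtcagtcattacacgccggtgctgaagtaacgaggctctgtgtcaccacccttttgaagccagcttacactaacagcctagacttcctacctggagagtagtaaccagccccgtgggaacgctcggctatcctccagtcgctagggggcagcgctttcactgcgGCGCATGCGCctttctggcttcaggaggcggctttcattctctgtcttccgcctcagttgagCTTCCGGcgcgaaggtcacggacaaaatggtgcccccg
Cox6a1: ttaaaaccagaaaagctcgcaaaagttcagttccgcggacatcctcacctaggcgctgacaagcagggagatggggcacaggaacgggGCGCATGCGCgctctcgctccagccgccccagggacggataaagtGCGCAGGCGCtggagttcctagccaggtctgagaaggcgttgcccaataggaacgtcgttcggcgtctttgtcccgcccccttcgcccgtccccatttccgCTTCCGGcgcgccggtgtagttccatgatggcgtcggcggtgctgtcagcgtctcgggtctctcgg

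Counted from the start site, the ETS letters begin at -38 in Atp5h, at 12 in Atp5k and at -16 in Cox6a1. The NRF1 letters begin at -141, at -50, and at -162 and -117. Between labels, the log2 difference was -0.38 for Atp5k, -0.16 for Cox6a1 and -0.04 for Atp5h, and none of the 3 passed.

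Partner genes outside the 60 showed no call either. Of 39 genes listed as assembly factors, mitochondrially encoded subunits and regulators of the 3 complexes, 38 were tested and 0 passed by edgeR. At an unadjusted p under 0.05, 5 of the 38 differed, beside 12.9% of all genes: 3 were higher, beside 5.7%, and 2 lower, beside 7.23%. By DESeq2 also, 0 passed. Their median was -0.06, with 18 positive and 20 negative. The 6 subunits encoded in mitochondrial DNA were all negative, with a median log2 difference of -0.27, and 5 of the 6 did not overlap between labels, all lower in the libraries labelled KO, beside 44.9% and 23.3% of all genes. Their differences ran only from -0.31 to -0.24, and genes of 1 library are not independent, so the count is a description. mt-Cytb, the core of complex III, was at 1420 and 1290 CPM under the WT label and 1030 and 1170 under the KO label (-0.30, SE 0.13, adjusted p 0.412). WT replicate 1 was the highest library for these mitochondrial transcripts, with 11230 CPM in sum beside 9550 in WT replicate 2, 8244 in KO replicate 1 and 8935 in KO replicate 2. The nuclear members had a different order, with WT replicate 2 the highest.

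Assembly factors of complex III outside the members were 5 positive and 2 negative (median 0.14). Ttc19, which clears Rieske fragments from complex III, was at 9.37 and 9.01 against 12.1 and 15.0 CPM (0.56, SE 0.19, adjusted p 0.295), and Uqcc3, an early assembly factor, at 22.1 and 23.7 against 20.0 and 19.3 CPM. Those of complex IV were 2 positive and 9 negative (median -0.21). Smim20, which stabilises newly made Cox1 protein, was at 19.6 and 13.6 against 11.4 and 10.8 CPM (-0.57, SE 0.22, adjusted p 0.344), and Lrpprc, which protects mitochondrial messenger RNA, at 209 and 229 against 241 and 240 CPM. The 5 genes listed with ATP synthase were 3 positive and 2 negative (median 0.02). Atpif1, the inhibitor that stops ATP synthase from running backwards, was at 44.2 and 44.3 CPM under the WT label and 35.4 and 28.5 under the KO label (-0.47, SE 0.16, adjusted p 0.305). Tmem70, which helps form the c ring, was at 46.9, 22.1, 22.3 and 61.1 CPM, and its replicates differed widely within each label.

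Among the 10 regulators, 9 were tested, 8 of them positive, with a median of 0.10. Nrf1, whose motif was searched above, was at 60.0, 57.5, 58.4 and 53.2 CPM (-0.07, SE 0.13). Pprc1, a growth-regulated coactivator of respiratory genes, was at 91.4 and 104 CPM under the WT label and 225 and 103 under the KO label. Its difference of 0.75 (SE 0.32, adjusted p 0.40) came from KO replicate 1 and was 0.07 without it. Ppargc1a, the related coactivator PGC-1alpha, had 0 counts in all 4 libraries.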

How the data were processed

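The 4 libraries are mRNA from total RNA, prepared with a stranded kit per the labels' protocols. The authors deposited whole-number counts per gene, with no normalization, and FPKM, per the file headers. Kallisto and GRCm38 are named in the submitters' processing notes, with no version or role. The sources used here do not state whether counting used strand or how reads of genes with the same sequence were divided. Columns of values matching no sample described here (8) were not used. Columns were joined to samples by description code.

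Counts were tested in R 4.3.3 with edgeR 4.0.16 (filterByExpr, TMM, glmQLFTest, two-sided), with Benjamini-Hochberg adjustment over 13528 genes. Its prior degrees of freedom were 4.87 and its biological coefficient of variation 15.9%. DESeq2 1.42.0 and limma 3.58.1 on log2(FPKM + 1) were alternatives, with FPKM of at least 1 in 2 libraries. The fit was checked on simulated counts. Intervals cover counting error only. Sequence windows and transcripts came from GENCODE M21 and promoters from RefSeq. The copies added to a gene were other genes with at least 50% of its 31-base coding windows.

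Members, lists and tests were chosen with earlier results of these data known. The text names members past the adjusted threshold, the highest FPKM and lowest p in each direction of a role, isoform sets, Ppm1k, Kat14, and the lowest p in each direction of each outside list. Uqcrc1, Uqcrc2, Pet100, Surf1, Taco1, Cox7b2, Cox7c, Atp5a1, Atp5h, Cox5b, Ppargc1a and the copies were named in addition after their values were seen. Same-numbered libraries did not deviate together (correlation of deviations -0.177 over 13528 genes), and the main fit used no pairing. The titles give only replicate numbers, so whether the animals were paired is not known.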

Additional observations from a re-analysis of the deposited data

How the results depend on the processing

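Pet117 passed the adjusted threshold under each alternative except the added copies (chosen after seeing the data), where its sum with Kat14 gave -0.40 and left 0 members called. Pet117 held 15.8% of that sum, so its loss could lower the sum only modestly. The added copies therefore cannot decide the call of Pet117. The cause of its difference was not tested. Genes called over the whole table numbered 28, against 277 by DESeq2, 146 without a filter on low counts, 4 by limma on log2(FPKM + 1) and 4 on log2(FPKM + 0.1), and from 8 to 304 with 1 library left out. With the replicate number as a block, 123 genes were called. Because same-numbered libraries deviated in opposite directions, the crossed pairing was added after seeing the data, and 12 genes were called. Neither block changed the call of a member. The median of the members ran from -0.20 to 0.04 with 1 library left out, and their negative values from 24 to 44. Ppm1k ran from 0.73 to 1.24 with 1 library left out, was at 0.59 on log2(FPKM + 1), and passed only without WT replicate 1.

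Signs near 0 did not hold. Without a filter, and with upper-quartile scaling, Atp5e and Cyc1 were at -0.01 and Uqcrfs1 at -0.00. With copies added, Atp5g2 was at -0.17 and Atp5l at -0.20. With 1 library left out, values ran from -0.20 to 0.23 for Atp5e, -0.24 to 0.31 for Cyc1, -0.15 to 0.20 for Uqcrfs1, -0.37 to 0.26 for Atp5g1, -0.17 to 0.25 for Atp5g3, -0.15 to 0.25 for Atp5j, -0.05 to 0.31 for Atp5l, -0.11 to 0.07 for Atp5o, -0.21 to 0.45 for Cox5a, -0.25 to 0.09 for Cox6b1, -0.08 to 0.24 for Cycs, -0.09 to 0.20 for Sco1, -0.24 to 0.37 for Kat14 and -0.62 to 0.92 for Tmem70. A lone library of a label is assumed to vary like the rest. Depth limits the restricted isoforms, which had at most 7 counts where untested.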

Other observations

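The deposited FPKM uses 1 length per gene, and for most members that length was longer than any annotated transcript. Of the 57 members with a length, 49 had one above the longest GENCODE M21 transcript and 48 above all exon bases of the gene together. For 13 it equalled the sum of the lengths of the gene's transcripts to within 1 base, 8 of them with more than 1 transcript. The median ratio of deposited length to principal transcript was 2.32 and the highest 14.3. Cyc1, Sco2 and Cox8a went the other way, with deposited lengths of 1194, 1143 and 545 bases for principal transcripts of 1520, 1250 and 550. The deposited coordinates of these genes differ from those in GENCODE M21, whereas 54 of the 60 members have the same ones. For these genes the lengths compared therefore rest on different annotations. Cyc1 ranks 4 by FPKM and 16 per kilobase of principal transcript, and Cox8a ranks 2 by FPKM and 4 per principal transcript. Comparisons between labels that rest on counts do not use this length. The limma alternatives do, through the constant added to FPKM and the FPKM minimum. Pet117, for example, was at -4.72 on log2(FPKM + 1) and at -7.11 on log2(FPKM + 0.1). Taking out the trend of fold change with length also rests on it.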
